A study of Homo sapiens with 3 samples.

Results

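The mRNAs that encode the general mRNA decay machinery were followed through 3 RNA pull-downs. The set held 48 genes out of 52992 genes to which the deposited transcripts could be summed. It was chosen by symbol and no measured value entered the rule, but earlier results of these data were known. By role, 11 encode subunits of the CCR4-NOT complex, 3 the deadenylases PAN2-PAN3 and PARN, 11 the decapping enzymes, their activators and the 5' to 3' exonucleases, 7 the LSM1-7 ring, 12 the RNA exosome, 2 cytoplasmic poly(A)-binding proteins and 2 factors of nonsense-mediated decay. RNA came from lysate of J82, a long-established line of human bladder cancer cells with no treatment given in the labels. It was recovered with wild-type ZFP36L1 fused to glutathione S-transferase (GST-ZFP36L1 wildtype), with an alanine mutant of the same fusion (GST-ZFP36L1-Ala mutant), or with GST alone as the control. The libraries were read on a BGISEQ-500, 1 for each protein, so no value has a replicate. The labels name neither the residues changed to alanine nor how the fusion proteins were made.

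Decay of most mRNAs begins with shortening of the poly(A) tail by PAN2-PAN3 and CCR4-NOT. The shortened mRNA is then bound by the LSM1-7 ring with PATL1, decapped by DCP2 and degraded from its 5' end by XRN1, or degraded from its 3' end by the exosome. ZFP36L1 is a zinc finger protein that binds AU-rich elements in the 3' untranslated region (3' UTR) of mRNAs and recruits CCR4-NOT and decapping factors to the bound mRNA. What was measured here is the mRNA of these factors and not the proteins.

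The libraries held 19845386 estimated counts with wild type, 19153483 with the Ala mutant and 19137867 with GST. Counts of all transcripts of a gene were added, and 14082 genes with a mean of at least 10 counts were compared, 46 of the 48 among them. A gene was called higher or lower at a ratio of at least 2 between 2 scaled libraries with a 95% counting interval that excluded 1. Such an interval covers counting error only, and counts are shares of a library that do not show how much RNA each protein recovered. By that rule 59.7% of all genes differed between wild type and GST and 66.1% between wild type and the Ala mutant, but 14.1% between the Ala mutant and GST. Ratios also followed base composition across all genes, with a Spearman correlation with transcript GC content of -0.59 for wild type over GST, 0.54 for Ala mutant over GST and -0.67 for wild type over Ala mutant, over 14081 genes that share these 3 libraries. Of 12 urothelial and epithelial markers, KRT19, KRT5 and UPK3A were at 0 counts in every library and the sum of the list was 1362 counts with wild type, 29787 with the Ala mutant and 17730 with GST. EPCAM, at 55, 3 and 11 counts, ran against that order. The 6 mesenchymal markers summed to 5119, 29789 and 42792 counts in the same libraries, a sum carried by VIM (2581, 29118 and 41484), whereas FN1 (1403, 263 and 573) and ZEB1 (960, 263 and 499) had most counts with wild type. Markers of other cell types were near 0, with 17, 36 and 36 counts over 5 leukocyte genes, 0, 3 and 1 over 2 erythroid genes and 0, 3 and 0 over 2 hepatocyte genes. The part of the keratin and vimentin difference in the results below was not tested. The GST table carries another code in its name than the tables of both ZFP36L1 proteins, and the labels do not say what the code means. Any difference that the code may mark and one between GST and the ZFP36L1 proteins cannot be told apart.

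As a set, the decay machinery took a near-equal share of each library: 60265 summed counts with wild type (0.316% of the counts assigned to genes), 60785 with the Ala mutant (0.331%) and 59718 with GST (0.325%). Within that share the individual mRNAs differed between libraries. With wild type, 10 of the 46 measured mRNAs were higher than with GST and 18 were lower, which is 21.7% and 39.1%. Among all genes 25.5% were higher and 34.2% lower, so neither share is far from the background. The median log2 ratio of wild type over GST was -0.50 for the set and -0.04 for all genes.

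With the Ala mutant, 6 of 46 were higher than with GST and 1 was lower, where 9.00% of all genes were higher and 5.13% lower. The median log2 ratio of Ala mutant over GST was 0.03 for the set and 0.04 for all genes. With libraries scaled to total counts the split became 5 higher and 2 lower for the set and 6.67% and 7.23% for all genes. With totals that leave out mitochondrial genes and the 20 most abundant genes it became 4 higher and 3 lower, against 5.52% and 8.78%. Between wild type and the Ala mutant 9 of 46 were higher and 16 lower, where 30.1% of all genes were higher and 36.1% lower. The median of that comparison was -0.70 for the set and -0.04 for all genes. With the reduced totals 12 were higher and 13 lower, and the shares of all genes became 36.8% higher and 32.8% lower.

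The ratios differed within roles as well as between them. Higher with wild type than with GST were the measured catalytic subunits of CCR4-NOT and the nucleases PAN2, XRN1, DIS3 and DIS3L, but also CNOT9, LSM6 and PABPC1. Lower were the exonucleases XRN2 and EXOSC10, most of the exosome core and part of the LSM ring, among others. The wild-type library stands in both of its comparisons, so their counts share it: 8 mRNAs were higher with wild type than in both other libraries, and 15 were lower than in both. A further 15 were called in no comparison, namely CNOT1, CNOT4, PARN, DCP2, DDX6, LSM14A, LSM1, LSM3, LSM5, EXOSC1, EXOSC3, EXOSC6, EXOSC8, UPF1 and UPF2. Of these 15, 12 were called in at least 1 comparison under an alternative way of counting or scaling, all but LSM3, EXOSC3 and EXOSC8. The 2 unmeasured mRNAs were CNOT6L, a nuclease paralog of CNOT6 with 1 count with wild type and 0 with the Ala mutant and with GST, and DCP1A, a decapping activator at 0 in all 3 libraries. A count of 0 limits either mRNA only to 3 counts per library.

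**Figure D1:**
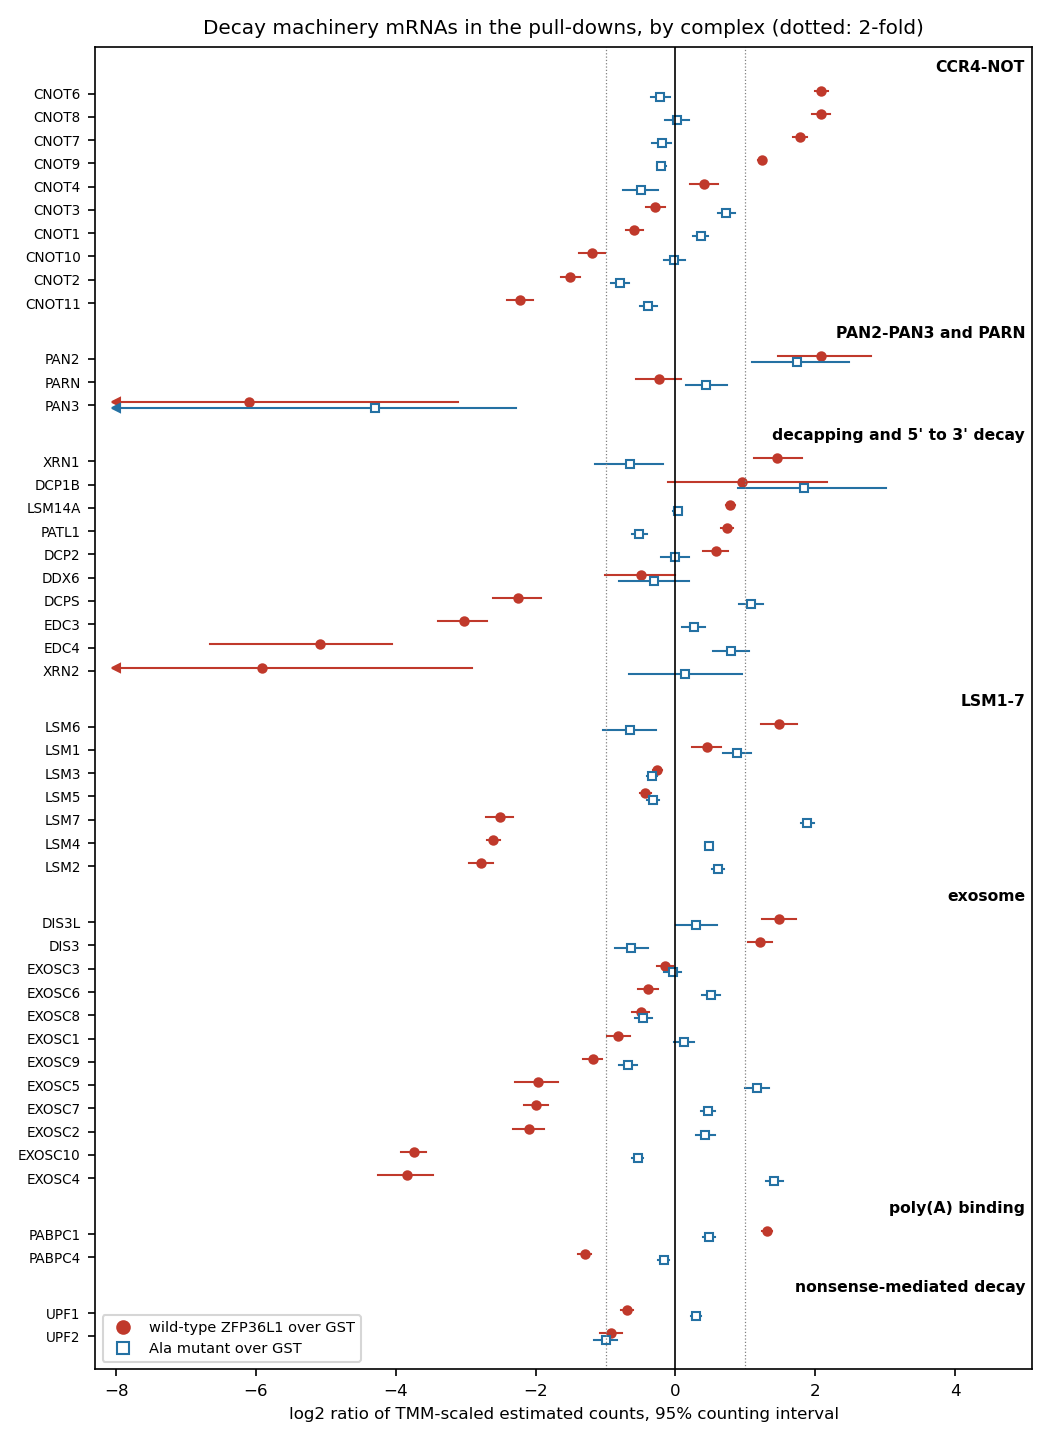
Log2 ratio of TMM-scaled estimated counts for the 46 measured mRNAs, grouped by complex, with wild-type ZFP36L1 over GST as filled red circles and Ala mutant over GST as open blue squares. Lines are 95% counting intervals (arrows: the bound lies beyond the axis, with the library at 0 or 1 count) and dotted lines mark 2-fold. Red points spread from CNOT6 at 2.09 to EXOSC4 at -3.84 and beyond, while most blue points stay within 2-fold.

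The core site of ZFP36L1, UAUUUAU, was searched in 1 annotated 3' UTR per gene, taken from its coding transcript of highest mean TPM (a transcript level scaled for length). It was read on the transcript strand only, and overlapping copies were counted separately. Among measured genes with an annotated 3' UTR, 3594 of 11694 held at least 1 copy (30.7%), and 13 of the 46 measured decay mRNAs did (28.3%). Copies are shown in capitals with 11 bases on each side (fewer where the EXOSC9 mRNA ends). They are from the higher CNOT6, CNOT8, XRN1, DIS3 and PAN2, then PATL1 and DCP2, and last EXOSC6 and EXOSC9, which hold copies and were not higher. The measured CNOT3, PARN and UPF1, not called against GST, and PAN3, lower with wild type than with GST, also hold 1 copy each, not shown. The PAN2 copy lies in PAN2-202, while 80.8% of the PAN2 counts fell on PAN2-205. Coordinates are those of GRCh38 in GENCODE 29.
CNOT6 copy 1, chr5:180577021-180577049 (+): uuaguggucauUAUUUAUgcuuugagagu
CNOT6 copy 2, chr5:180577879-180577907 (+): agcuagcauuaUAUUUAUauacagggucu
CNOT8, chr5:154876731-154876759 (+): cuuguaaauacUAUUUAUguuuuuaauuu
XRN1 copy 1, chr3:142310988-142311016 (-): agaauggcucuUAUUUAUguguguuuuaa
XRN1 copy 2, chr3:142310316-142310344 (-): auauauauauaUAUUUAUucuuuaguuuu
XRN1 copy 3, chr3:142308151-142308179 (-): uacucacuuuuUAUUUAUguguucuauuu
DIS3 copy 1, chr13:72759581-72759609 (-): uugaacagaauUAUUUAUgcagaauaauu
PAN2, chr12:56316929-56316957 (-): auaucguuuguUAUUUAUcucauuagaga
PATL1, chr11:59637887-59637915 (-): ccccauacaugUAUUUAUguggucuucag
DCP2 copy 1, chr5:113014982-113015010 (+): aggagaaauucUAUUUAUuaaugaaagug
EXOSC6 copy 4, chr16:70247253-70247281 (-): uauuuucaguaUAUUUAUuuuauuuauuu
EXOSC9, chr4:121816888-121816909 (+): auuaaaagggaUAUUUAUucca

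The copies lie in different surroundings. In CNOT8 the heptamer sits at base 1303 of a 3' UTR of 1354 bases, close to the end of the mRNA, and in EXOSC9 at base 43 of 53. In DIS3, whose 3' UTR spans 7626 bases, the 3 copies begin at bases 197, 4358 and 5286. The 3' UTR of EXOSC6 holds 6 copies in 4304 bases, the last 3 of them starting at bases 3812, 3821 and 3825, and 2 copies of the longer UUAUUUAUU. That nonamer was otherwise found only in UPF1 among the measured decay mRNAs. The EXOSC6 transcript that the authors counted was 1700 bases long, against 5153 bases in GENCODE 29, and that of DIS3 7371 bases against 10604. Part of these 3' UTRs may therefore have drawn no counts, and the EXOSC6 copies, with the one shown, may lie outside the counted sequence.

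Of the 13 measured mRNAs with a copy, 5 were higher with wild type than with GST and 2 lower, with a median log2 ratio of 0.57. Of the 33 without a copy, 5 were higher and 16 lower, with a median of -0.92. The genes of the whole series showed the same order: of 3594 with a copy 1695 were higher and 311 lower (median 0.94), and of 8100 with a 3' UTR and no copy 1445 were higher and 3641 lower (median -0.69). Between the Ala mutant and GST, 1 of the 13 was higher and 1 lower (median -0.01), and 5 of the 33 were higher and 0 lower (median 0.12). Of all genes in that comparison 87 were higher and 271 lower with a copy, and 829 higher and 276 lower without. Between wild type and the Ala mutant, 5 of the 13 were higher and 1 lower (median 0.34), against 4 higher and 15 lower of the 33 (median -0.94). Of all genes 2056 were higher and 333 lower with a copy, and 1714 higher and 3778 lower without. When the 3' UTR was taken from the transcript with the most counts, a choice added after the data had been seen, CNOT7 gained 1 copy and 6 of 14 mRNAs with a copy were higher than with GST and 2 lower. That CNOT7 transcript was 2649 bases long in the deposited tables and 6913 in GENCODE 29, so its copy may lie outside the counted sequence. After a fit on GC content and length was removed from all genes, the decay mRNA medians for wild type over GST were 0.82 with a copy and -0.74 without. Those of all genes shrank to 0.39 and -0.26. The fit described each gene by its transcript of highest mean TPM. The 0.82 is the value of DCP2, fitted on a transcript of 852 bases, while its copies and 82.9% of its counts lie on DCP2-201. XRN1 was fitted on a transcript of 643 bases, with 94.3% of its counts on XRN1-201. Whether the decay mRNAs kept a wider difference than all genes was not tested. A copy of the heptamer is a match of letters, and binding at these positions was not measured.

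The nuclease genes of CCR4-NOT were the clearest group on the high side. CNOT6, the deadenylase of the CCR4 type (chr5:180494412-180578405), had 4693 counts with wild type, 814 with the Ala mutant and 1042 with GST. Wild type was 4.25-fold above GST (95% counting interval 3.98 to 4.55) and 4.94-fold above the Ala mutant (4.59 to 5.33). The Ala mutant and GST differed by less than 2-fold, at a log2 ratio of -0.22.

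CNOT8, a deadenylase of the CAF1 type, had 2633 counts with wild type, 539 with the Ala mutant and 587 with GST, which put wild type 4.23-fold above GST (3.87 to 4.64). Its paralog CNOT7 had 3898, 849 and 1074 counts in the same order, 3.43-fold higher with wild type than with GST (3.20 to 3.67). All 3 measured nuclease subunits were therefore higher with wild type and differed by 1.01-fold to 1.16-fold between the Ala mutant and GST. CNOT9, a scaffold-bound subunit that contacts RNA-binding proteins, had 10346 counts with wild type, 3275 with the Ala mutant and 4160 with GST, and was 2.35-fold higher with wild type than with GST (2.27 to 2.44).

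The other CCR4-NOT subunits were lower or were not called. CNOT11, which forms a module with CNOT10, had 292 counts with wild type, 892 with the Ala mutant and 1285 with GST, 4.65-fold lower with wild type than with GST (4.10 to 5.31). CNOT10 had 347, 671 and 749 counts in that order and was 2.28-fold lower with wild type than with GST, a call lost at a log2 ratio of -0.81 with protein-coding transcripts alone. CNOT2, which docks with CNOT3, had 588 counts with wild type, 825 with the Ala mutant and 1576 with GST. It was 2.84-fold lower with wild type than with GST (2.58 to 3.12), and the Ala mutant stood between them at a log2 ratio over GST of -0.79. CNOT2, EXOSC9 and PAN3 were the 3 mRNAs called lower with wild type than with GST and not called against the Ala mutant.

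CNOT3 had 799 counts with wild type, 1385 with the Ala mutant and 921 with GST, and was called lower only against the Ala mutant, by 2.02-fold (1.85 to 2.21). That call was not kept under 7 alternatives, among them total-count scaling at a log2 ratio of -0.85, and the sign turned to 2.03 once GC content and length were fitted out. The same fit took wild type over GST for CNOT3, at -0.29 without it, to 2.08. Of the 31-base words of the leading CNOT3 transcript, 77.7% also occur in transcripts of other genes. CNOT1, the scaffold of the complex, had 986, 1633 and 1402 counts with wild type, the Ala mutant and GST, and CNOT4, an E3 ubiquitin ligase, 498, 227 and 354, and neither passed 2-fold as counted here. CNOT1 was however called lower with wild type than with GST on TPM (log2 ratio -1.46), with its leading transcript alone (-3.32) and under the GC and length fit (-1.23), and lower than with the Ala mutant under the same settings. CNOT4 was called higher with wild type than with the Ala mutant under total counts (1.07) and reduced totals (1.23). In all, 4 of 10 measured CCR4-NOT mRNAs were higher with wild type than with GST and 3 lower, against 25.5% and 34.2% of all genes. The 3 nuclease subunits had a median log2 ratio of 2.08 and the other 7 one of -0.59. After removal of the GC and length fit these medians were 1.38 and -1.23, and CNOT6 alone of the 4 higher mRNAs fell short of 2-fold, at 0.84.

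**Figure D2:**
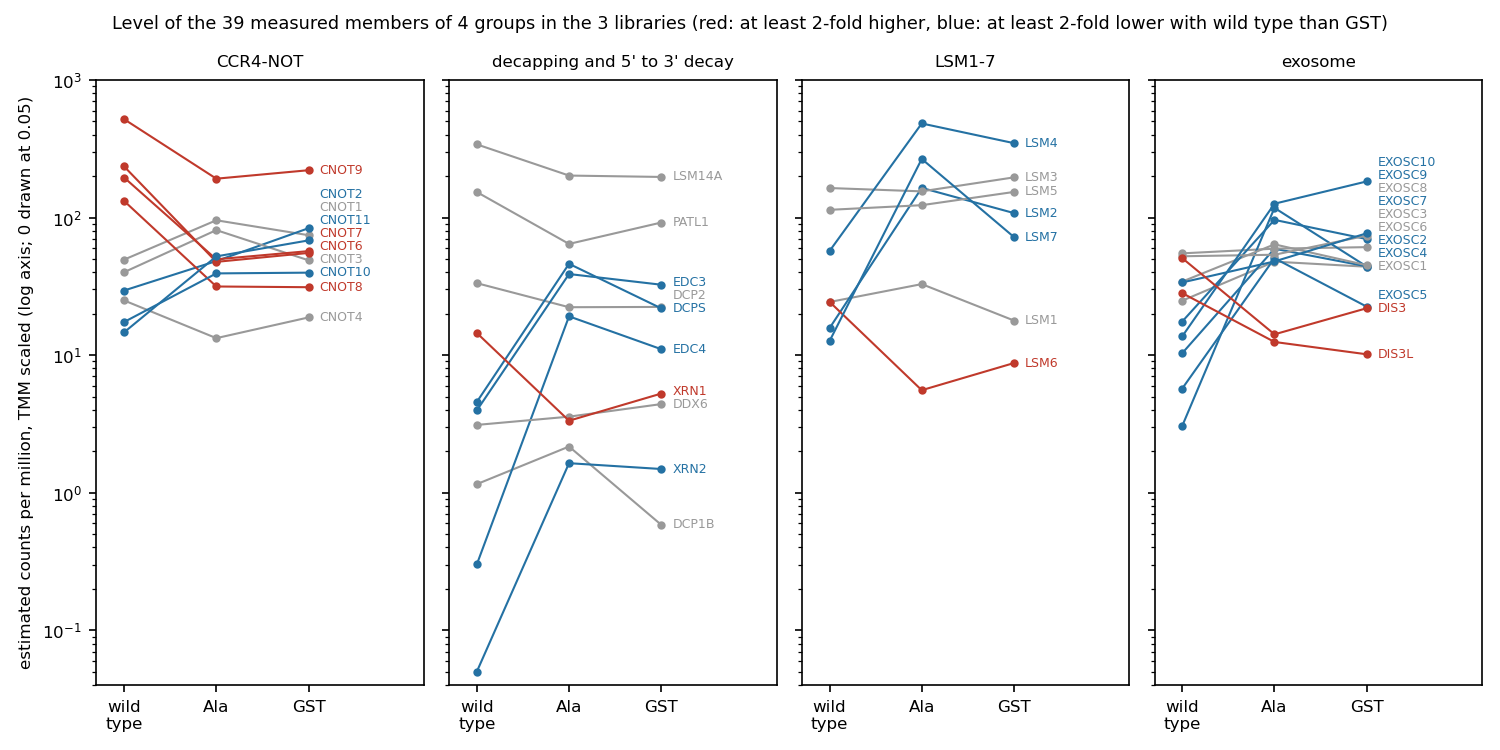
TMM-scaled CPM of estimated counts (log axis) of the 39 measured mRNAs of CCR4-NOT, decapping and 5' to 3' decay, LSM1-7 and the exosome with wild type, the Ala mutant and GST, 1 point per library. Red lines, at least 2-fold higher with wild type than with GST, are also higher than with the Ala mutant. Blue lines, at least 2-fold lower, are lowest with wild type. Most blue lines, LSM7 and EXOSC4 among them, are highest with the Ala mutant, while CNOT2, CNOT10, CNOT11, EXOSC9 and EXOSC10 are highest with GST.

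PAN2 and PAN3 form the deadenylase that trims long poly(A) tails, with PAN2 as the nuclease and PAN3 as the adaptor that binds poly(A)-binding protein. PAN2 had 114 counts with wild type, 77 with the Ala mutant and 25 with GST, 4.24-fold higher with wild type than with GST (2.78 to 6.93) and 3.35-fold higher with the Ala mutant than with GST (2.14 to 5.57). It was the only one of the 10 mRNAs higher with wild type than with GST that was also higher with the Ala mutant. However, 80.8% of its counts fell on PAN2-205, a transcript annotated as retained intron, and none on the principal transcript. On deposited TPM the ratio of wild type over GST came to 0.94 on the log2 scale and the call was lost. The levels were 1.98 TPM with wild type and 0.736 TPM with GST, before a pseudocount of 0.5 was added to each.

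PAN3 had 0 counts with wild type, 1 with the Ala mutant and 32 with GST, at least 11.3-fold lower with wild type than with GST against a floor of 3 counts per library. The single count with the Ala mutant put it 19.7-fold below GST (4.85 to 1182), and PAN3 was the only mRNA of the set called lower in that comparison. On TPM, where its GST level was 0.28, both calls were lost. The pseudocount of 0.5 added to each level exceeds every PAN3 level, so 2-fold was out of reach. That setting does not bear on either call. PARN, a poly(A)-specific ribonuclease that works mainly in the nucleus and on noncoding RNAs, had 155, 213 and 173 counts with wild type, the Ala mutant and GST and was called in no comparison.

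Of the 10 measured mRNAs of decapping and 5' to 3' decay, 1 was higher with wild type than with GST and 4 were lower, against 25.5% and 34.2% of all genes. The higher one was XRN1, the cytoplasmic 5' to 3' exonuclease that degrades decapped mRNA, with 289 counts with wild type, 57 with the Ala mutant and 99 with GST. Wild type was 2.75-fold above GST (2.19 to 3.50) and 4.31-fold above the Ala mutant (3.26 to 5.88). On TPM the ratio over GST came to 0.29 on the log2 scale and the call was lost. XRN2, the nuclear relative that acts in transcription termination, had 0 counts with wild type, 28 with the Ala mutant and 28 with GST, at least 9.88-fold lower with wild type than with GST and at least 10.9-fold lower than with the Ala mutant. All of its counts lay on its principal transcript, at 0.318 TPM with the Ala mutant and 0.351 TPM with GST, and both libraries list the same estimate before rounding. On TPM the ratio over GST came to -0.83 on the log2 scale and both calls were lost. The pseudocount of 0.5 exceeds these TPM levels, so 2-fold was out of reach and that setting does not bear on either call. With at most 28 counts in a library, the size of the difference is doubtful.

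The decapping activators EDC3 and EDC4 were among the mRNAs farthest below GST. EDC3, an enhancer of decapping, had 79 counts with wild type, 664 with the Ala mutant and 612 with GST, 8.16-fold lower with wild type than with GST (6.48 to 10.5). EDC4, the scaffold of the decapping complex, had 6, 327 and 208 counts in that order, 34.0-fold lower with wild type than with GST (16.6 to 101). Its counts were spread over partial transcripts, with 1.60% of them on the principal transcript. DCPS, the scavenger enzyme that hydrolyses the cap left after 3' to 5' decay, had 91 counts with wild type, 788 with the Ala mutant and 412 with GST. It was 4.77-fold lower with wild type than with GST (3.81 to 6.08) and 2.11-fold higher with the Ala mutant than with GST (1.87 to 2.38), so GST stood between the 2 ZFP36L1 proteins. The call of Ala mutant over GST was lost under 5 alternatives, among them total counts at 0.94 on the log2 scale, and the GC and length fit took wild type over GST to -0.41.

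The catalytic subunit and the translational repressors on this route lay closer to GST. DCP2, the decapping enzyme, had 665 counts with wild type, 381 with the Ala mutant and 422 with GST, a log2 ratio of wild type over GST of 0.57. Its transcript of highest mean TPM alone, DCP2-203, gave -2.44, although DCP2-201 held 82.9% of its counts. PATL1, the scaffold that links LSM1-7 to DCP2, had 3057, 1099 and 1733 counts in that order. It was called only between wild type and the Ala mutant, 2.38-fold higher with wild type (2.22 to 2.56), and lost that call at 0.61 on the log2 scale once GC content and length were fitted out. LSM14A, a repressor that binds the helicase DDX6, had 6787 counts with wild type, 3451 with the Ala mutant and 3717 with GST, 1.72-fold higher with wild type than with GST and below the 2-fold rule. DDX6 itself had 62, 61 and 83 counts, and 2.83% of them were on its principal transcripts. DCP1B, a cofactor of DCP2, had 23 counts with wild type, 37 with the Ala mutant and 11 with GST. It was 3.59-fold higher with the Ala mutant than with GST (1.85 to 8.06), an interval that reaches below 2-fold. On TPM that ratio came to 0.91 on the log2 scale. The levels were 0.750 TPM with the Ala mutant and 0.235 TPM with GST, before the pseudocount of 0.5 was added.

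The LSM1-7 ring binds the 3' end of deadenylated mRNA, with LSM1 as the subunit that sets it apart from the nuclear LSM2-8 ring. LSM7 had 252 counts with wild type, 4558 with the Ala mutant and 1359 with GST. It was 5.70-fold lower with wild type than with GST (4.99 to 6.56), 3.70-fold higher with the Ala mutant than with GST (3.48 to 3.93), and 21.1-fold lower with wild type than with the Ala mutant (18.6 to 24.1). No measured decay mRNA had a higher log2 ratio of Ala mutant over GST than the 1.89 of LSM7. LSM2 had 313, 2807 and 2030 counts with wild type, the Ala mutant and GST, 6.86-fold lower with wild type than with GST (6.09 to 7.76), and 9.79% of its counts were on its principal transcript. LSM4 had 1138, 8253 and 6542 counts, 6.08-fold lower with wild type than with GST (5.71 to 6.49).

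LSM6 went the other way, with 487 counts with wild type, 95 with the Ala mutant and 165 with GST, 2.78-fold higher with wild type than with GST (2.33 to 3.35). The remaining ring subunits were not called. LSM1 had 485, 561 and 336 counts in that order, and 59.1% of the 31-base words of its leading transcript also occur in transcripts of other genes. LSM3 had 3268, 2649 and 3691 counts and LSM5 2269, 2102 and 2892, so subunits of 1 ring covered log2 ratios of wild type over GST between -2.78 and 1.48. The GC and length fit took LSM4 to -0.56 and LSM6 to 0.63, and LSM7 to within 2-fold as well, while LSM2 kept its call.

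The exosome degrades RNA from the 3' end. Its core of EXOSC1 to EXOSC9 is a barrel without catalytic activity in human cells, and its nucleases are DIS3, the cytoplasmic DIS3L and the nuclear EXOSC10. None of the 9 core mRNAs had a ratio of wild type over GST above 1: 0 were higher and 5 were lower, with a median log2 ratio of -1.19. Against the Ala mutant 0 were higher and 4 lower, with a median of -0.94. Among all genes 25.5% were higher and 34.2% lower than with GST and 30.1% higher and 36.1% lower than with the Ala mutant, and both medians were -0.04.

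EXOSC4 had 61 counts with wild type, 2009 with the Ala mutant and 830 with GST. It was 14.3-fold lower with wild type than with GST (log2 ratio -3.84, interval -4.25 to -3.47) and 2.67-fold higher with the Ala mutant than with GST (2.46 to 2.90). Of the 31-base words of its leading transcript, 28.5% also occur in other genes. EXOSC5 had 114, 865 and 424 counts in that order, 3.92-fold lower with wild type than with GST (3.19 to 4.89) and 2.25-fold higher with the Ala mutant than with GST (upper bound 2.53). EXOSC4 and EXOSC5, which both belong to the ring of the barrel, thus joined DCPS and LSM7 as lower with wild type and higher with the Ala mutant than with GST. EDC3, EDC4, LSM2 and LSM4, among others, showed the same order of scaled counts without passing 2-fold between the Ala mutant and GST. EXOSC5 had the second-highest GC content of the set at 62.8%, and the GC and length fit turned its ratio of wild type over GST to 0.66 and that over the Ala mutant to 0.28. Under the same fit EXOSC4 kept its call against GST with wild type, at -1.10, and lost that with the Ala mutant, at 0.60.

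EXOSC2, a cap subunit of the barrel, had 206 counts with wild type, 1014 with the Ala mutant and 832 with GST, 4.27-fold lower with wild type than with GST (log2 ratio -2.09, interval -2.32 to -1.87). None of its counts lay on its principal transcript. EXOSC7, a ring subunit, had 350, 1644 and 1314 counts, 3.97-fold lower with wild type than with GST (3.53 to 4.48), and came to -0.96 on the log2 scale under the GC and length fit. EXOSC9 had 673 counts with wild type, 820 with the Ala mutant and 1447 with GST, 2.28-fold lower with wild type than with GST (2.08 to 2.50). Its transcript of highest mean TPM alone, EXOSC9-204, gave -0.93 on the log2 scale, while EXOSC9-212 held the most counts. The other 4 core mRNAs did not pass 2-fold. EXOSC1 had 496, 817 and 827 counts with wild type, the Ala mutant and GST, EXOSC3 had 1095, 1015 and 1148, EXOSC6 had 683, 1091 and 848, and EXOSC8 had 1043, 917 and 1392.

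The exosome nucleases split. EXOSC10 (chr1:11066618-11099881) had 273 counts with wild type, 2154 with the Ala mutant and 3448 with GST, 13.3-fold lower with wild type than with GST (11.8 to 15.2). Of its counts 86.7% lay on transcripts annotated as retained intron. DIS3 had 1011 counts with wild type, 242 with the Ala mutant and 413 with GST, 2.31-fold higher with wild type than with GST (2.06 to 2.60). DIS3L had 563, 213 and 191 counts, 2.78-fold higher with wild type than with GST (2.36 to 3.30), with none of them on its principal transcript. Neither of these higher nucleases kept its call under the GC and length fit, where DIS3 came to 0.03 and DIS3L to 0.94. DIS3 also fell short with its leading transcript alone, at 0.36.

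PABPC1, the main cytoplasmic poly(A)-binding protein, had 5332 counts with wild type, 2566 with the Ala mutant and 2031 with GST, 2.48-fold higher with wild type than with GST (2.36 to 2.61) and 1.78-fold higher than with the Ala mutant. Only 0.229% of its counts were on the principal transcript, and 47.6% of the 31-base words of its leading transcript, PABPC1-220, also occur in other genes. PABPC4, an inducible relative, had 1252, 2346 and 2911 counts in that order, 2.46-fold lower with wild type than with GST (2.30 to 2.63) and 2.19-fold lower than with the Ala mutant, the second of which was lost under 5 alternatives, among them total counts at -0.96 on the log2 scale. The paralogs therefore stood on opposite sides of GST.

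The helicase UPF1 and its partner UPF2 act in nonsense-mediated decay. UPF1 had 1954 counts with wild type, 3316 with the Ala mutant and 2982 with GST, and 97.3% of them fell on UPF1-210, annotated as retained intron. The coding UPF1-201 had 7, 119 and 96 counts in that order, and protein-coding transcripts alone gave a log2 ratio of wild type over GST of -3.79, while the GC and length fit turned the ratio over all its transcripts from -0.69 to 0.89. UPF2 had 538, 437 and 960 counts, with log2 ratios over GST of -0.92 for wild type and -0.99 for the Ala mutant. It was the mRNA nearest to the 2-fold rule on the low side of the Ala mutant comparison, and it was called lower there under total-count scaling at -1.13.

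A ratio summed over transcripts can hide transcripts that go opposite ways, and it did so for several mRNAs called in no comparison. LSM5-208, with a 3' UTR of 1929 bases, had 1786 counts with wild type, 472 with the Ala mutant and 580 with GST, a log2 ratio of wild type over GST of 1.54. The shorter LSM5-204 had 187, 467 and 1161 counts and a ratio of -2.71, and LSM5-202 had 203, 811 and 775 counts and a ratio of -2.01. The LSM5 transcript with the long 3' UTR was thus the one recovered most with wild type, and it holds no UAUUUAU.

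CNOT1 showed the same split. The long coding CNOT1-201 of 8471 bases had 722 counts with wild type, 511 with the Ala mutant and 389 with GST, a log2 ratio of wild type over GST of 0.81. CNOT1-204, a retained-intron transcript of 2280 bases, had 108, 1060 and 938 counts and a ratio of -3.19. In DCP2 the coding DCP2-201 had 631, 255 and 331 counts (0.85) and DCP2-203, a processed transcript, 19, 117 and 91 (-2.31). In CNOT7 the principal CNOT7-201 had 3435 counts with wild type, 571 with the Ala mutant and 733 with GST (log2 ratio of wild type over GST 2.15), while CNOT7-203 of 426 bases had 281, 199 and 233 (0.19). CNOT7-203 leads CNOT7 by TPM, so the CNOT7 call was lost when each gene was reduced to its leading transcript, at 0.06.

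EXOSC1-204 was level, with 492 counts with wild type, 448 with the Ala mutant and 506 with GST, while EXOSC1-202 had 3, 358 and 286. EXOSC9-212, annotated for nonsense-mediated decay and the longest EXOSC9 transcript in the plot at 3882 bases, had 377, 151 and 361 counts, while EXOSC9-201 had 52, 287 and 493. EXOSC1-202 is shorter than EXOSC1-204, at 718 against 923 bases. In EXOSC9 the order did not follow length: EXOSC9-201 of 1481 bases had a log2 ratio of wild type over GST of -3.31, and EXOSC9-204, the shortest in the plot at 644 bases, had 112, 73 and 185 counts and a ratio of -0.80. DIS3-202 had 401 counts with wild type and was listed at 0 with the Ala mutant and with GST, and UPF2-203 had 334, 47 and 0 counts in that order. Shares of transcripts are kallisto's estimates from reads that transcripts of a gene have in common, and their error is not known here.

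**Figure D3:**
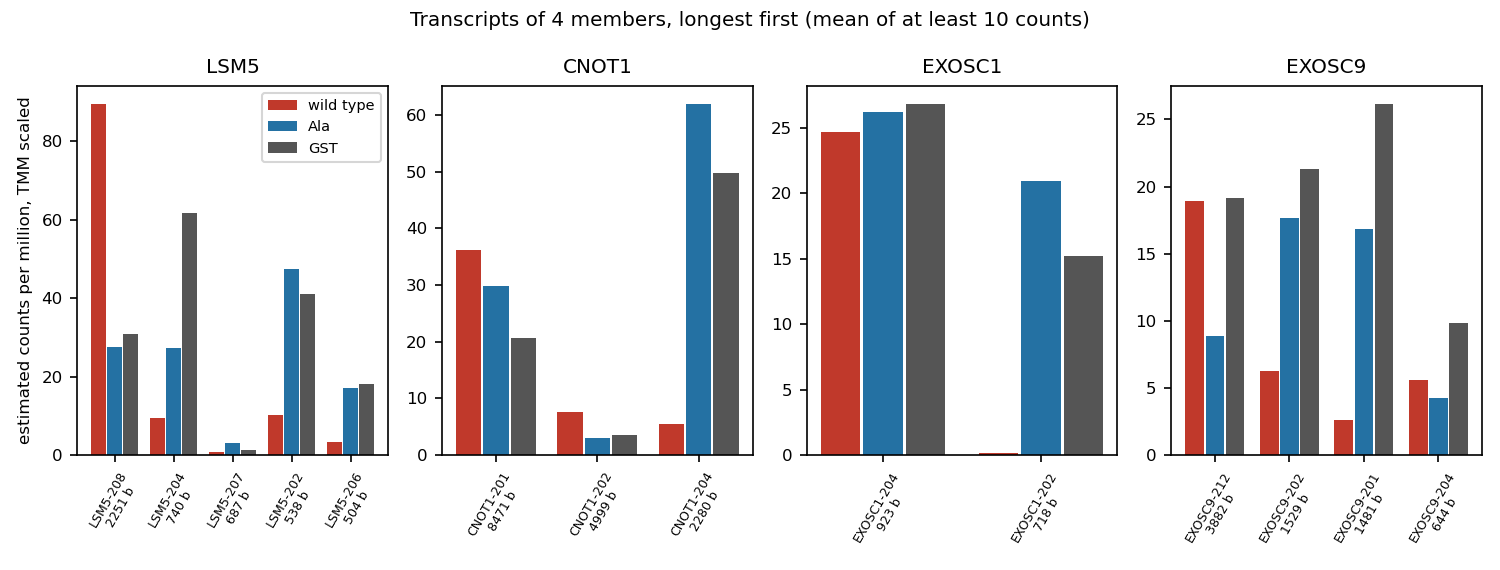
TMM-scaled CPM of estimated counts of the transcripts of LSM5, CNOT1, EXOSC1 and EXOSC9 with a mean of at least 10 counts, longest transcript on the left in each panel, with wild type in red, the Ala mutant in blue and GST in grey. Wild type is the tallest bar for LSM5-208 and CNOT1-201 and a short bar for LSM5-204, CNOT1-204, EXOSC1-202 and EXOSC9-201.

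Of the 46 measured genes, 34 had a protein-coding transcript in the lead by counts, 7 a retained-intron transcript (CNOT1, PAN2, EDC4, DDX6, EXOSC10, PABPC4 and UPF1) and 5 another type. In 11 genes (CNOT4, PAN2, PAN3, EDC4, DDX6, LSM2, EXOSC2, DIS3L, PABPC1, PABPC4 and UPF1) fewer than 10% of the counts were on the principal transcript of the annotation. Genes whose leading transcript shares at least 25% of its 31-base words with other genes were CNOT3, EDC4, LSM1, EXOSC4 and PABPC1. With both kinds of gene left out after the data had been seen, 32 mRNAs remained. Against GST, 7 of these (21.9%) had a higher and 12 (37.5%) a lower level with wild type, near the 25.5% and 34.2% of all genes.

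The higher and lower mRNAs differed in GC content, taken from the transcript of highest mean TPM. They also differed in 3' UTR length, taken from the coding transcript of highest mean TPM. The 10 higher with wild type than with GST had a median GC content of 43.9% (39.0% to 54.6%) and a median 3' UTR of 1632.5 bases. The 54.6% is that of an XRN1 transcript of 643 bases, while XRN1-201, with 94.3% of the XRN1 counts, has 37.3% GC. The 18 lower had a median GC content of 50.4% (38.4% to 64.4%) and a median 3' UTR of 241 bases. The 6 higher with the Ala mutant than with GST had a median GC content of 57.8%. Across the 46 mRNAs, which share the 3 libraries, the Spearman correlation of ratio with GC content was -0.34 for wild type over GST, 0.65 for Ala mutant over GST and -0.53 for wild type over Ala mutant. EXOSC10 has 45.1% GC and kept a log2 ratio of wild type over GST of -3.50 after the fit. After the GC and length fit was removed, 19 of the 28 calls between wild type and GST remained. Whether composition had a part in any of the 28, kept or lost, was not tested.

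**Figure D4:**
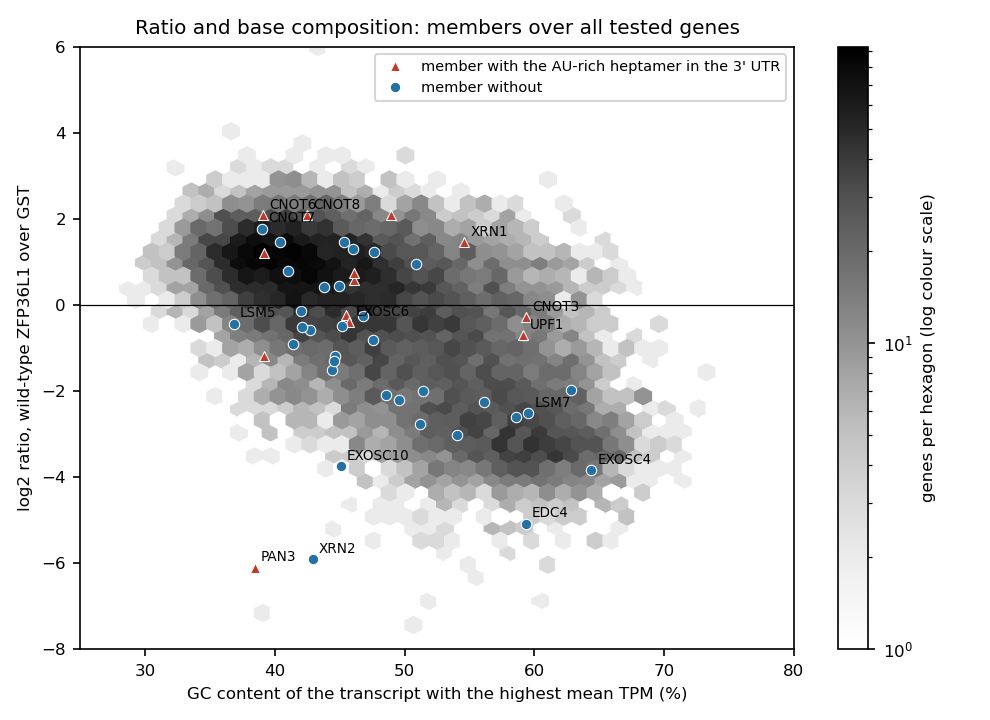
Log2 ratio of wild-type ZFP36L1 over GST against GC content of the transcript with the highest mean TPM, with all measured genes as grey hexagons (colour scale: genes per hexagon, log) and the decay mRNAs on top, red triangles with at least 1 copy of the ZFP36L1 heptamer in the 3' UTR and blue circles without. The cloud of all genes slopes down, and CNOT6, CNOT7 and CNOT8 sit at its upper left and EDC4 and EXOSC4 at its lower right.

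A further 44 genes that work with these complexes were all measured. With wild type 11 were higher than with GST and 12 lower (median log2 ratio 0.16). With the Ala mutant 0 were higher than with GST and 3 lower (-0.10). Between wild type and the Ala mutant 13 were higher and 11 lower (0.46). These shares can be read against the same backgrounds of 25.5% and 34.2%, 9.00% and 5.13%, and 30.1% and 36.1%.

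Ranked by the bound of the counting interval nearest to 1, the highest ratios of wild type over GST among them were those of TENT4A, a noncanonical poly(A) polymerase (1290 counts with wild type, 389 with the Ala mutant and 281 with GST, log2 ratio 2.11), LSM8 (3130, 719 and 759, ratio 1.96), the release factor GSPT1 (19968, 4437 and 5835, ratio 1.69) and the ribosome rescue factor HBS1L (5887, 1057 and 2052, ratio 1.44). LSM8, the nuclear counterpart of LSM1, thus stood with LSM6 and apart from LSM2, LSM4 and LSM7. The lowest were TNKS1BP1, a protein bound to CCR4-NOT (53, 1060 and 1165, ratio -4.53), SKIV2L, the helicase of the exosome cofactor SKI (63, 1280 and 749, ratio -3.64), SMG5 of nonsense-mediated decay (89, 1075 and 947, ratio -3.49) and the nuclear poly(A)-binding protein PABPN1 (3217, 19873 and 24830, ratio -3.03). SMG6 had a lower ratio than PABPN1, at -3.20, on 44, 431 and 385 counts and so with a wider interval.

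HBS1L (2.25), PNRC1 (2.01), GSPT1 (1.95) and C1D (2.31) were the highest of these genes between wild type and the Ala mutant by the same ranking, given as log2 ratios, and SKIV2L (-4.56), TNKS1BP1 (-4.53), SMG5 (-3.81) and SMG9 (-3.51) the lowest. Of Ala mutant over GST, the highest by that bound were SKIV2L (0.91), SMG9 (0.69), TENT4A (0.61) and SMG5 (0.32), none at 2-fold, while NOCT (0.53) and WDR61 (0.33) had higher ratios than SMG5 on fewer counts. The lowest were UPF3A (-1.19), TTC37 (-1.18), C1D (-1.23) and PNRC1 (-0.88), of which the first 3 passed the rule. SKIV2L and TTC37, which encode subunits of 1 SKI complex, therefore lay on opposite sides of GST in the Ala mutant library.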

How the data were processed

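RNA pulled down from J82 lysate was measured in 3 libraries, 1 per protein, so no p-value was computed and no comparison has a replicate. The submitters' processing notes name kallisto, DESeq2 and the build hg19, without versions, roles or an annotation release. Per the file headers, the tables deposited by the authors hold for each of 196354 transcripts the estimated count, the TPM (transcript level scaled to a fixed total), and the length and effective length in bases.

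By transcript identifier, version left off, 92.6% could be found in GENCODE 29 (GRCh38). The unmatched 14497 carried 3.79% of the counts with wild type, 4.20% with the Ala mutant and 3.92% with GST. The 48 genes had 501 transcripts in the tables of 522 in GENCODE 29. Estimated counts were summed per gene and rounded, and genes with a mean of at least 10 were compared. Libraries were scaled with TMM (edgeR 4.0.16), with factors of 1.05 for wild type, 0.933 for the Ala mutant and 1.03 for GST. Log2 ratios used a prior count of 0.5. Intervals are exact 95% Clopper-Pearson intervals on the split of both libraries' counts; reads carry no molecular identifiers, so they cover counting error only. Folds against 0 counts use a floor of 3 counts per library.

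Genes were named when called in any comparison or at either end of a complex, and among other pathway genes as the 4 highest and 4 lowest by the interval bound nearest to 0. The genes and lists were chosen with earlier results of these data known. Alternatives were size factors from DESeq2 1.42.0, scaling to total counts, scaling to reduced totals that leave out mitochondrial genes and the 20 most abundant genes, TPM with a pseudocount of 0.5, no minimum and a minimum of 100 counts, the leading transcript only, protein-coding transcripts only, a cubic fit on GC content and log2 length removed, and folds of 1.5 and 3. Leaving out genes of doubtful transcript assignment, and the 3' UTR of the transcript with the most counts, were added after the data had been seen. Among these alternatives, the leading transcript of a gene was that of highest mean TPM, and the GC and length fit used that transcript. For transcript types and transcript sharing it was that with the most counts. Gene sequences came from GENCODE 29, and transcript sharing was counted in 31-base words.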

Additional observations from a re-analysis of the deposited data

How the results depend on the processing

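With 1 library per protein no replicate could be left out. No paired analysis was possible because each group has 1 library. The 28 calls between wild type and GST were all kept under DESeq2 size factors, both total-count scalings and no minimum count, 24 on TPM with 3 gained, 23 of 27 with the leading transcript with 4 gained, 26 of 27 with protein-coding transcripts with 1 gained, and 19 with the GC and length fit removed with 5 gained. Of the 25 between wild type and the Ala mutant, 15 were kept with that fit removed and 7 gained, 21 were kept on TPM and 22 under the reduced totals. Of the 7 between the Ala mutant and GST, 3 were kept on TPM, 4 with the fit removed and 5 under the reduced totals. For PAN3 and XRN2 the pseudocount of 0.5 exceeds every TPM level, so 2-fold was out of reach on TPM. The cause of the other lost calls was not tested. The median of all genes shifted by over 0.1 on the log2 scale under the reduced totals, to 0.07 for wild type over GST, -0.17 for Ala mutant over GST and 0.28 for wild type over Ala mutant, and under total counts to -0.09 and 0.12 for both comparisons with the Ala mutant. Over other sets of genes, it shifted as far for wild type over Ala mutant with no minimum (-0.16) and a minimum of 100 counts (0.12). For wild type over GST it did so with the leading transcript (-0.15).

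Counts that moved by over 1.5 times were these. The 10 higher with wild type than with GST became 4 at a 3-fold threshold. The 6 higher with the Ala mutant than with GST became 3 on TPM, 3 with the GC and length fit removed, 10 at 1.5-fold and 3 at 3-fold. The 1 lower became 2 under total counts, TPM, no minimum count and the GC and length fit, 3 under the reduced totals and with the leading transcript, 7 at 1.5-fold, and 0 without genes of doubtful transcript assignment. That last setting also took the 16 lower with wild type than with the Ala mutant to 10. Among called ratios, the sign turned with the GC and length fit only: EXOSC5 to 0.66 for wild type over GST and 0.28 for wild type over Ala mutant, and CNOT3 to 2.03 for wild type over Ala mutant; the cause was not tested. Among ratios not called, a turned sign became a call for DCP2 with the leading transcript by TPM (-2.44 over GST and -2.88 over Ala mutant). The same held for CNOT3 over GST with the fit removed (2.08). For UPF2 over Ala mutant it held with the leading transcript by TPM (-1.23) and with the fit removed (-1.38). Other ratios not called, such as UPF1 over GST with the fit removed (0.89), turned sign without a call. XRN2, DDX6, DCP1B, PAN3 and PAN2 had a mean under 100 counts, which limits their precision. PAN2, PAN3 and DDX6 also had at most 2.83% of their counts on principal transcripts. The same limit holds for single libraries under 100 counts of EDC4 (6 with wild type), EDC3 (79) and DCPS (91). It also holds for XRN1 (57 with the Ala mutant and 99 with GST), EXOSC4 with wild type and LSM6 with the Ala mutant.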
